A study of Saccharomyces cerevisiae with 5 samples.

Results

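Yeast lacking SIW14 differed from wild type in many genes both with and without hydrogen peroxide, and the subject here is how far those differences were larger or smaller in peroxide. For each gene, the log2 ratio of siw14 over wild type without stress was subtracted from the log2 ratio with both strains in peroxide. A positive difference therefore means that the ratio of siw14 to wild type was higher in peroxide than without stress. By arithmetic it is also the log2 change of siw14 between the unstressed and peroxide states minus that of wild type. Genes were taken when both arrays held a value, which gave 5584 of 6253 genes and unnamed probes, among them 3909 of 4072 named genes.

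Polyadenylated RNA of Saccharomyces cerevisiae was hybridised to 2-colour arrays, 1 array for each comparison, after growth to log phase in synthetic complete medium. The peroxide array set Siw14D cells given 0.4 mM H2O2 for 20 min (Cy5) against BY4741 cells given the same (Cy3). The unstressed array set Siw14D cells without treatment (Cy5) against untreated BY4741 cells (Cy3). For context, another array set Siw14D against BY4741 with both in 0.4 M KCl for 20 min, and another set the strain ACY044, labelled as wild type, in the same peroxide against its own unstressed cells. Siw14D is given as a single strain, and whether it is 1 clone is not stated. The labels record no dye swap, so a dye effect and the strain difference cannot be told apart on any 1 array. The Cy3 source name of the peroxide array names only the medium, whereas its treatment entry gives the peroxide, and the treatment entry was followed. With 1 array on each side, no test, error or p-value could be had for any gene, and 2-fold is used below as a rule of size. The deposited log ratios were read as base 2, which neither labels nor file state, so each fold holds only under that reading.

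Siw14 is a phosphatase that removes a phosphate from inositol pyrophosphates, signalling molecules built on inositol that carry energy-rich diphosphate groups. In yeast, peroxide activates the transcription factor Yap1, which turns on genes for peroxiredoxins, thioredoxin, glutathione synthesis, NADPH oxidoreductases and drug exporters. Msn2 and Msn4 turn on a wider set of general stress genes under many conditions, while stressed cells lower the genes for making ribosomes and pause their division cycle. Iron uptake genes are turned on by Aft1 and Aft2 when iron is short.

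SIW14 itself lay at -1.66 in peroxide and -2.07 unstressed, lower in siw14 on both arrays, with a difference of 0.41. Where its probe binds within the gene is not known here. LEU2 lay at 2.24 in peroxide and 1.84 unstressed, and URA3 lay at 1.63 and 3.02. Both are auxotrophic marker genes that BY4741 lacks, and why they read higher in the siw14 samples was not tested. The full genotype of Siw14D is not in the labels. Other differences between Siw14D and BY4741 therefore cannot be told apart from loss of SIW14 in any ratio. Missing values made up 7.08% of the peroxide array and 10.3% of the unstressed array. The ratios were spread more widely in peroxide, with a median absolute deviation over the members of 0.506 against 0.255 unstressed. Where a gene had a high or low ratio on both arrays, the sign of its difference can therefore turn when each array is divided by its own spread. Such turns are given below for genes and lists, and the difference of LEU2, 0.41, is -1.04 under that scaling.

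Most genes had a similar ratio on both arrays. The difference lay within 2-fold for 5080 of 5584, or 91.0%, and had a median of -0.02 with quartiles of -0.36 and 0.34. It reached 2-fold upward for 284 genes and probes (5.09%) and 2-fold downward for 220 (3.94%). The upper end reached further, to 6.85 against -3.39 at the lower end, with 73 past 4-fold upward and 12 downward. Among named genes alone, 157 were higher (4.02%) and 163 lower (4.17%). Unnamed probes had 127 higher (7.58%) and 57 lower (3.40%), and they made up 11 of the 25 highest and 8 of the 25 lowest of all.

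The 284 higher differences were split by the ratio on each array. Of the 284, 184 (64.8%) were at least 2-fold higher in siw14 in peroxide but under 2-fold unstressed, and 46 were at least 2-fold higher on both arrays. A further 15 were at least 2-fold lower in siw14 unstressed and under 2-fold in peroxide, 3 crossed 2-fold in both directions, and 36 were under 2-fold on both. Of the 220 lower, 163 (74.1%) were at least 2-fold lower in peroxide and under 2-fold unstressed. Another 11 were at least 2-fold higher unstressed and under 2-fold in peroxide, 9 were at least 2-fold higher on both, 2 were at least 2-fold lower on both, and 35 were under 2-fold on both. Genes under 2-fold unstressed were 5160 of the 5584 members, and 4.26% of them had a higher and 3.84% a lower difference. Of the 337 at least 2-fold higher unstressed, 13.6% had a higher and 5.93% a lower difference, and of the 87 at least 2-fold lower unstressed, 20.7% and 2.30%. The unstressed ratio that sorts these genes is also subtracted in the difference, so these shares depend on it by construction.

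**Figure D1:**
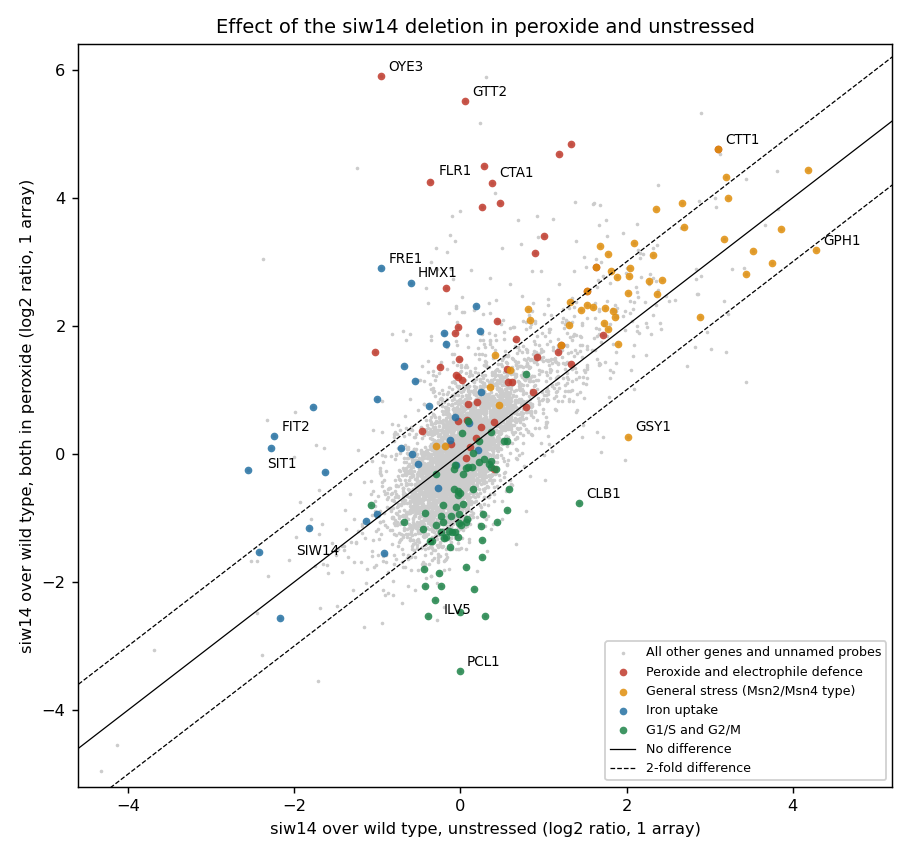
Log2 ratio of siw14 over wild type with both strains in peroxide (vertical axis) against the same ratio unstressed (horizontal axis), 1 point for each of the 5584 genes and unnamed probes, with 4 groups of listed genes in colour. The solid line marks no difference and the dashed lines a 2-fold difference. Of the defence genes, 25 of 47 sit above the band, with OYE3 (5.90 in peroxide, -0.96 unstressed) the furthest. Of the G1/S and G2/M genes, 31 of 71 sit below it, with PCL1 (-3.40 and -0.01) the furthest. Among named genes 4.02% sit above the band and 4.17% below. General stress genes lie high on both axes, and the sign of their median difference turns when each array is divided by its own spread.

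Genes for peroxide and electrophile defence led the upper end. OYE3, an NADPH oxidoreductase of the old yellow enzyme family, lay at 5.90 in peroxide and -0.96 unstressed, a difference of 6.85, or 116-fold. GTT2, a glutathione S-transferase, lay at 5.51 in peroxide and 0.05 unstressed, and FLR1, a plasma membrane drug exporter, lay at 4.26 and -0.35. None of these genes was 2-fold or more above wild type in unstressed siw14 cells, and each stood above 4 on the log2 scale in peroxide.

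Across the 4 lists on thiol peroxidases and thioredoxins, glutathione, catalase and superoxide enzymes, and electrophile enzymes, 47 of 53 genes named on the array had a difference. Of these, 25 (53.2%) were past 2-fold upward and 0 downward, beside 4.02% and 4.17% of named genes. Their median difference was 1.12, with median ratios of 1.50 in peroxide and 0.29 unstressed. The difference was at least 2-fold for 18 that were high in peroxide alone, 6 that were high on both arrays and 1 that was low unstressed. With each array divided by its own spread the median was 0.45, with 18 past 2-fold upward and 2 downward.

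Old yellow enzymes, aldo-keto reductases and other electrophile enzymes had 10 of 18 genes at least 2-fold higher, and all 18 differences were above 0, although 7 of the 18 were below 0 with each array divided by its own spread. The aryl-alcohol dehydrogenase genes AAD4, AAD6 and AAD3 had differences of 4.61, 3.60 and 1.14, while AAD10 and AAD14 had 0.55 and 0.18, which fall just below 0 with each array divided by its own spread. The AAD genes are close copies of each other, and their signals may mix. GRE2, a methylglyoxal reductase, lay at 4.49 in peroxide and 0.29 unstressed. OYE2, the close relative of OYE3, lay at 1.59 in peroxide and -1.03 unstressed, so it was above wild type in one state and below it in the other. ADH6, an NADPH-dependent alcohol dehydrogenase, lay at 1.98 and -0.03, GLO4, a mitochondrial glyoxalase, at 1.23 and -0.06, and ZTA1, a quinone oxidoreductase, at 1.79 and 0.67. The aldose reductase family genes GRE3, ARA1 and GCY1 were already high unstressed, at 1.21, 1.33 and 1.53, and had differences of 0.49, 0.07 and 1.01, all 3 of which are below 0 with each array divided by its own spread.

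Glutathione genes had 6 of 13 at least 2-fold higher and a median difference of 0.68. GSH1, which makes the first intermediate of glutathione, lay at 2.59 in peroxide and -0.18 unstressed, whereas GSH2, which completes it, lay at 0.53 and 0.08. ECM4, an omega-class glutathione transferase, lay at 4.83 and 1.33, and the glutaredoxin GRX2 lay at 3.41 and 1.01. The glutathione reductase GLR1 lay at 1.20 and -0.02, and YCF1, which moves glutathione conjugates into the vacuole, at 1.48 and -0.02. The list was therefore uneven: GTT1, GRX1, GRX3, GRX4, GRX5 and BPT1 had differences between -0.63 and 0.68, of which those of GTT1 and GRX1 turn to -1.15 and -0.54 with each array divided by its own spread.

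Thiol peroxidases followed the same uneven pattern, with 4 of 10 at least 2-fold higher and a median of 0.60. With each array divided by its own spread the median was 0.10, with 2 of 10 past 2-fold upward and 5 below 0. The peroxiredoxin gene TSA1 lay at 1.88 in peroxide and -0.07 unstressed, and its paralogue TSA2 at 4.69 and 1.18. AHP1, an alkyl hydroperoxide reductase, lay at 2.08 and 0.44. GPX1, a glutathione peroxidase, lay at 2.92 and 1.64, and its difference of 1.28 becomes -0.23 with each array divided by its own spread. HYR1, the peroxidase that senses peroxide for Yap1, had a difference of -0.06, and the thioredoxin TRX1 had 0.06, or -0.09 with that scaling. TRX2 and the thioredoxin reductase TRR1, which are Yap1 targets, had no value on the peroxide array, and neither had GPX2. In wild type (ACY044) in peroxide over unstressed, TRX2, TRR1 and GPX2 lay at 3.19, 1.57 and 4.22. The counts and medians of this list leave them out.

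Catalase, superoxide and haem peroxide enzymes had a median difference of 1.94, with 5 of 6 genes at least 2-fold higher. It was the highest of the list medians as deposited, but with each array divided by its own spread it was 1.21, below the 1.31 of iron uptake genes. CTA1, the peroxisomal catalase, lay at 4.23 in peroxide and 0.39 unstressed. CCP1, the mitochondrial cytochrome c peroxidase, lay at 3.91 and 0.47, and SOD2, the mitochondrial superoxide dismutase, at 3.13 and 0.90. CCS1, the copper chaperone of Sod1, lay at 1.35 and -0.25, and YHB1, a flavohaemoglobin, at 0.36 and -0.46. CTT1, the cytosolic catalase, was high on both arrays, at 4.76 in peroxide and 3.11 unstressed. Its difference of 1.65 becomes -1.04 with each array divided by its own spread, unlike those of CTA1 and CCP1. SOD1 lay at 2.44 in peroxide and had no unstressed value.

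Drug exporters and their regulators had 4 of 19 genes (21.1%) at least 2-fold higher and 0 lower, beside 4.02% and 4.17% of named genes. ATR1, an exporter of the same family as FLR1, lay at 3.14 in peroxide and -0.16 unstressed. The ABC exporter SNQ2 lay at 0.86 and -0.61, and YRR1, an activator of SNQ2, at 1.36 and 0.08. The ABC exporter PDR5 was low on both arrays, at -1.72 and -1.65, and its difference of -0.07 turns to 1.18 with each array divided by its own spread. PDR10, PDR15 and YOR1, also ABC exporters, had differences of 0.62, 0.21 and -0.46. ARR3 and ARR2, adjacent genes for arsenite export and arsenate reduction, lay at 2.75 and 2.25 in peroxide, against 0.35 and 0.16 unstressed; they stood in no list and were chosen after their values were seen.

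Among the oxidative stress regulators, 3 of 22 (13.6%) were at least 2-fold higher and 1 (4.55%) lower, beside 4.02% and 4.17% of named genes. The list median of 0.22 becomes -0.02 with each array divided by its own spread. YAP1 lay at 1.56 in peroxide and 0.26 unstressed. RPN4, the activator of proteasome genes, lay at 1.23 and -0.33. It was the only one of 40 genes on the proteasome list past 2-fold, and that list had a median difference of 0.39. MSN4 ran the other way, at 0.45 in peroxide and 1.48 unstressed, a difference of -1.03. MSN2 lay at 0.30 and 0.09 and SKN7, a partner of Yap1, at -0.83 and -0.24.

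As deposited, pathways that supply reducing power and carbon had more members past 2-fold upward than the 4.02% of named genes. Of the pentose phosphate genes, 4 of 12 (33.3%) were past 2-fold upward and 1 downward, and the median of 0.32 turns to -0.04 with each array divided by its own spread. Glycolysis and fermentation genes had 5 of 29 (17.2%) upward and 0 downward, with 25 of 29 above 0 and a median of 0.57, or 0.06 with that scaling. Citrate and glyoxylate cycle genes had 3 of 31 (9.68%) upward and 0 downward, with a median of 0.30 that turns to -0.04. With that scaling the counts upward and downward become 1 and 1 for pentose phosphate genes. They become 5 and 4 for glycolysis and fermentation genes, and 1 and 3 for citrate and glyoxylate cycle genes. ZWF1, which commits glucose 6-phosphate to the pentose phosphate pathway, lay at 0.98 in peroxide and -0.32 unstressed, and SOL1, related to the enzyme of the next step, at 1.01 and -0.11. GND2 and TKL2, minor isoenzymes of this pathway, had differences of 1.57 and 1.34 from ratios that were high on both arrays, and these become -0.05 and -0.29 with each array divided by its own spread. RKI1, an isomerase of the same pathway, lay at -1.01 in peroxide and 0.01 unstressed. Of the citrate and isocitrate enzymes, IDP2, a cytosolic NADP-dependent isocitrate dehydrogenase, lay at 1.87 and -0.20, while IDH2 and IDH1, subunits of the mitochondrial NAD-dependent enzyme, lay at 2.85 and 2.03 in peroxide against 0.97 and 0.49 unstressed. ADH5, an alcohol dehydrogenase gene of fermentation, lay at 2.35 and -0.39, and CYC1, cytochrome c, at 3.66 and 1.11, while respiratory genes as a list were high on both arrays, with medians of 1.14 in peroxide and 1.16 unstressed. Their median difference of 0.00 becomes -0.87 with each array divided by its own spread, with 15 of 43 past 2-fold downward.

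Sulphate and methionine genes had 4 of 30 (13.3%) past 2-fold upward, arginine and lysine genes 3 of 17 (17.6%), and both lists had 0 downward. Other amino acid synthesis genes had 0 of 44 upward and 2 downward (4.55%). Among named genes 4.02% were upward and 4.17% downward, so that last downward share is near the share of all named genes. With each array divided by its own spread, sulphate and methionine genes had 6 upward and 0 downward. Arginine and lysine genes then had 2 and 0, and other amino acid synthesis genes 2 and 1. MUP3, a methionine permease gene, lay at 3.22 in peroxide and -0.29 unstressed, and STR3, which makes homocysteine from cystathionine, at 1.74 and -0.18. LYS20, a homocitrate synthase of lysine synthesis, lay at 2.73 and -0.10, and ARG1 of arginine synthesis at 1.86 and 0.07. In the opposite direction ILV5, an enzyme of branched-chain amino acid synthesis, lay at -2.59 and -0.29. The remaining genes of the 25 highest were SDL1, related to serine dehydratases, at 2.59 and -0.42, SPS100, a spore wall gene, at 3.72 and 0.92, and MCH4, a transporter of the monocarboxylate family, at 1.87 and -0.61.

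**Figure D2:**
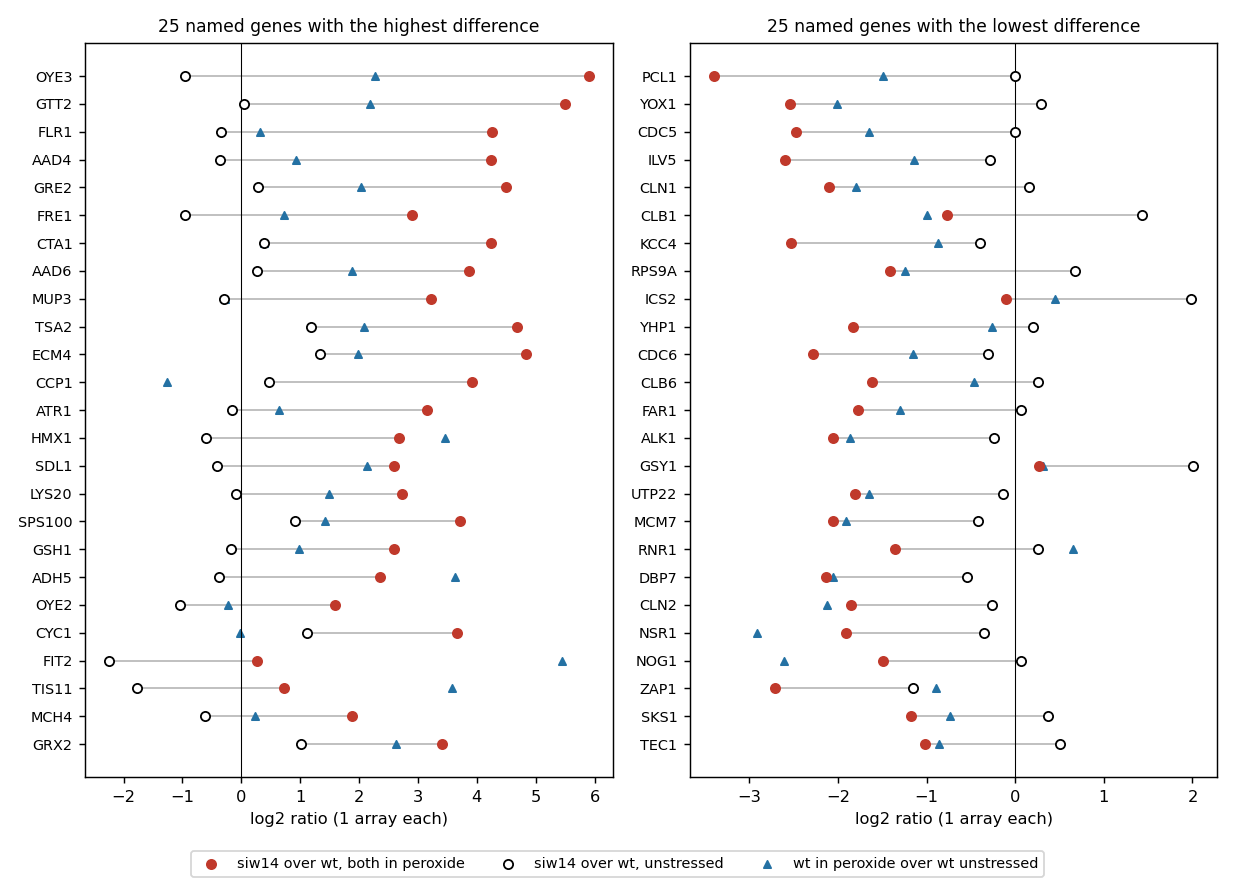
Log2 ratios of the 25 named genes with the highest difference (left) and the 25 with the lowest (right), with siw14 over wild type in peroxide as filled circles, the same unstressed as open circles and wild type (ACY044) in peroxide over unstressed as triangles, 1 array each. Of the 25 highest, 18 lay within 2-fold unstressed, and of the 25 lowest, 21 did, beside 5160 of all 5584 genes and unnamed probes.

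Iron uptake genes formed a second group, with a different starting point. In peroxide, 8 of 31 were at least 2-fold above wild type and 5 below, beside 12.6% and 7.79% of all genes with a difference. Unstressed, 0 were above and 11 below, beside 6.04% and 1.56%. The median ratio was 0.21 in peroxide and -0.60 unstressed, and the median difference was 0.90. The difference reached 2-fold upward in 15 of 31 (48.4%) and downward in 0, beside 4.02% and 4.17% of named genes. With each array divided by its own spread the median was 1.31 and 19 were at least 2-fold higher.

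The 15 iron genes divided by how they reached the difference. In 8, siw14 was at least 2-fold above wild type in peroxide and under 2-fold unstressed. These included FRE1, a ferric reductase, at 2.90 in peroxide and -0.95 unstressed, and HMX1, a haem oxygenase, at 2.67 and -0.60. AFT2, a gene for an activator of iron uptake genes, lay at 1.71 and -0.18, while its paralogue AFT1 lay at -0.16 and -0.51. The iron-sulphur scaffold genes ISU2 and ISU1 lay at 2.30 and 1.92 in peroxide, against 0.19 and 0.23 unstressed. MRS4, a mitochondrial iron importer, lay at 1.88 and -0.19, and CCC2, which supplies copper to Fet3, at 1.37 and -0.68.

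In 6 of the 15, siw14 was at least 2-fold below wild type unstressed and nearer to it, or above it, in peroxide. FIT2, a cell wall protein that holds iron siderophores, lay at 0.27 in peroxide and -2.24 unstressed. The siderophore transporters SIT1 and ARN2 lay at 0.09 and -0.28 in peroxide, against -2.28 and -1.63 unstressed, and ARN1 lay at 0.86 in peroxide with a difference of 1.86. TIS11, which degrades mRNAs of iron-using proteins, lay at 0.73 and -1.77, and FRE5, of the ferric reductase family, at -0.26 and -2.55. Other members remained low: FIT3 lay at -1.53 in peroxide and -2.43 unstressed, ENB1 at -1.16 and -1.83, FTR1, the high-affinity iron permease, at -1.05 and -1.13, and FRE4 at -2.57 and -2.17. The difference of FRE4, -0.40, turns to 1.31 with each array divided by its own spread. In KCl the siw14 ratios of FRE1, SIT1, ARN1 and TIS11 were -1.57, -2.17, -1.48 and -1.19, below wild type as in unstressed cells.

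**Figure D3:**
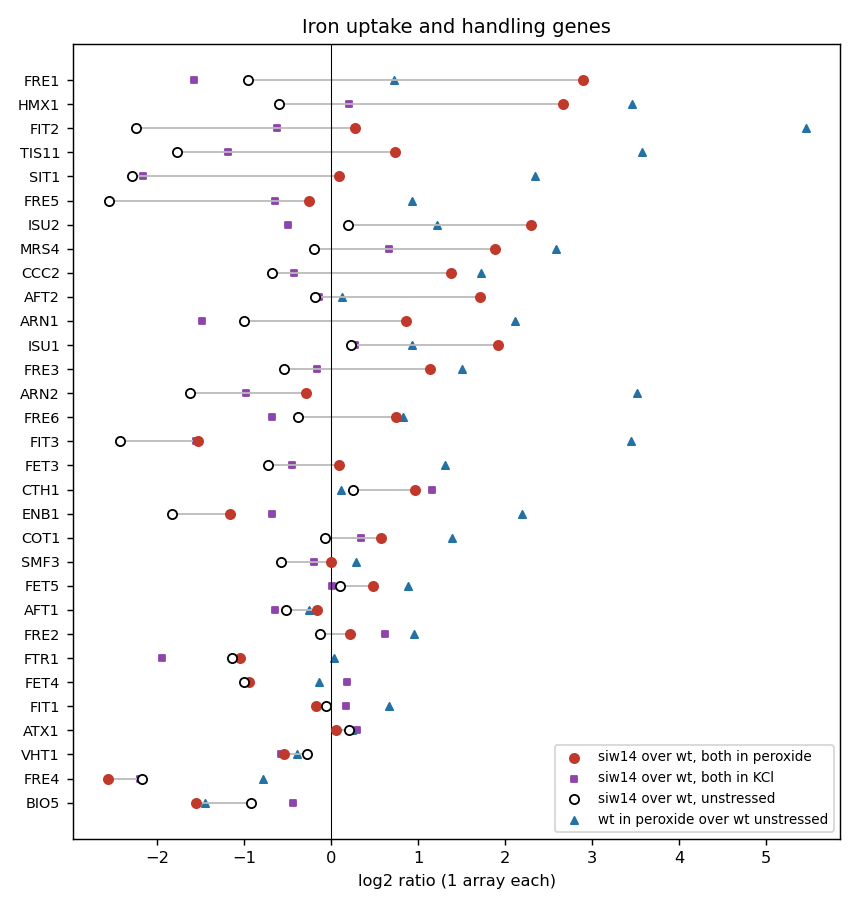
Log2 ratios of the 31 iron uptake and handling genes, from the highest difference at the top, with siw14 over wild type in peroxide (filled circles), in KCl (squares) and unstressed (open circles), and wild type (ACY044) in peroxide over unstressed (triangles), 1 array each. In 26 of the 31 the peroxide ratio lay above the unstressed one, from FRE1 (2.90 and -0.95) down to FET4 (-0.95 and -1.01).

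Zinc genes under Zap1 had 3 of 24 (12.5%) past 2-fold upward and 1 (4.17%) downward, beside 4.02% and 4.17% of named genes. Their median difference was -0.08, and it becomes 0.13 with each array divided by its own spread. ZAP1 itself lay at -2.70 in peroxide and -1.16 unstressed. The zinc-regulated genes ZPS1 and ADH4 were low on both arrays, at -3.07 and -2.49 in peroxide, against -3.69 and -2.45 unstressed, and the difference of ADH4, -0.04, turns to 1.78 with each array divided by its own spread.

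Division cycle genes made up most of the lower end. PCL1, a G1 cyclin of the kinase Pho85, lay at -3.40 in peroxide and -0.01 unstressed, a difference of -3.39, or 10.5-fold lower. YOX1 and YHP1, related repressors of cell cycle genes, lay at -2.53 and -1.83 in peroxide, against 0.29 and 0.20 unstressed. CDC5, the polo kinase, lay at -2.47 and -0.01. All 4 genes stood within 2-fold of wild type in unstressed siw14 cells. In RNA of whole cultures, fewer cells in a phase and less RNA per cell cannot be told apart.

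Of 71 genes in the G1/S and G2/M lists, the difference reached 2-fold downward in 31 (43.7%) and upward in 0. Among named genes 4.17% were downward and 4.02% upward. The median difference of the 71 was -0.85, and 67 were below 0. Their median ratio was -0.95 in peroxide and -0.01 unstressed, and 27 of the 31 were low in peroxide alone. With each array divided by its own spread the median was -0.62, and 16 were past 2-fold downward and 1 upward. G2/M and M/G1 genes had 20 of 36 (55.6%) past 2-fold and a median of -1.08, and G1/S genes had 11 of 35 (31.4%) and -0.72. The difference between these lists was not tested.

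G1, S-phase and mitotic cyclins were among them. The G1 cyclins CLN1 and CLN2 lay at -2.10 and -1.85 in peroxide, against 0.16 and -0.26 unstressed. The S-phase cyclin CLB6 lay at -1.62 and 0.26, and CLB5 at -1.09 and -0.02. The mitotic cyclin CLB2 lay at -1.06 and 0.44. CLB1 differed in kind, since its ratio was -0.77 in peroxide and 1.43 unstressed, so that its difference of -2.21 rested largely on the unstressed array. CLN3, the most upstream G1 cyclin, had a difference of -0.77, under 2-fold.

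Other low members act in replication, mitosis and checkpoint control. CDC6, which loads the replicative helicase, lay at -2.28 in peroxide and -0.30 unstressed, and the helicase subunit MCM7 at -2.06 and -0.42. RNR1, the large subunit of ribonucleotide reductase, lay at -1.35 and 0.25. KCC4, a septin-associated kinase, lay at -2.53 and -0.39, ALK1, a kinase of the haspin family, at -2.06 and -0.24, and FAR1, an inhibitor of the G1 kinase, at -1.77 and 0.06. SIC1, an inhibitor of S-phase cyclin kinase, and CTS1, a chitinase of cell separation, lay above 0 in the difference, at 0.42 and 0.46, the second of which turns to -0.22 with each array divided by its own spread. Histone genes had 4 of 11 (36.4%) at least 2-fold lower, beside 4.17% of named genes, and a median difference of -0.82. Their median ratios were -0.49 in peroxide and 0.26 unstressed. The histone copies are nearly identical in sequence, so HHF1 (-1.07), HHF2 (-1.20), HTA2 (-1.12) and HHT1 (-1.04) may not be measured apart from their pairs.

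Genes for ribosome assembly lay below 0 almost throughout, mostly by less than 2-fold. Of 121, 116 differences were below 0, 15 (12.4%) were at least 2-fold lower and 0 higher, beside 4.17% and 4.02% of named genes. The median ratio was -0.85 in peroxide and -0.25 unstressed, the median difference -0.56, and -0.23 with each array divided by its own spread. With that scaling 1 of 61 small subunit genes and 3 of 60 large subunit genes were past 2-fold downward. Differences below 0 then numbered 44 and 47. UTP22, DBP7, NSR1 and NOG1, which act in the small or large subunit assembly lines, had differences of -1.67, -1.59, -1.56 and -1.55. Of the polymerase I and polymerase III genes 4 of 37 (10.8%) were at least 2-fold lower, with RPO31, the largest subunit of polymerase III, at -1.82 in peroxide and -0.51 unstressed. Cytosolic ribosomal protein genes had a median difference of -0.30 and 2 of 121 (1.65%) past 2-fold downward, RPS9A and RPS27A. RPS9A lay at -1.41 in peroxide and 0.67 unstressed, but a near-identical copy may share its signal.

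General stress genes, those typically under Msn2 and Msn4, were high in siw14 in both states. Of 49, 45 were at least 2-fold higher in peroxide and 41 unstressed, beside 12.6% and 6.04% of all genes, with median ratios of 2.53 and 1.89. The median difference of 0.70, with 14 past 2-fold upward and 2 downward, becomes -0.92 with each array divided by its own spread, with 0 upward and 24 downward, so no direction is given for this list. Trehalose genes behaved alike, with a median difference of 0.61 that becomes -0.50. Of 18 glycogen genes, 12 were above 0, with 2 (11.1%) past 2-fold upward and 2 (11.1%) downward. Their median difference of 0.38 becomes -0.38 with that scaling. The 2 past 2-fold downward, GSY1, glycogen synthase, and GPH1, glycogen phosphorylase, had negative differences under both scalings. GSY1 lay at 0.27 in peroxide and 2.01 unstressed, and GPH1 at 3.18 and 4.28.

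Some genes had nearly the same deposited ratio on both arrays. Of 45 named genes at least 4-fold from wild type on both arrays in the same direction, 39 had a difference under 2-fold, beside 3589 of all 3909 named genes (91.8%). HXT7, a glucose transporter whose near copy HXT6 may share its signal, lay at 3.83 in peroxide and 3.82 unstressed. INH1, an inhibitor of the ATP synthase, lay at 2.07 on both, IMD2 of guanine nucleotide synthesis at 2.89 and 2.83, and SOL4 of the pentose phosphate pathway at 4.43 and 4.19. With each array divided by its own spread these are differences of -2.81 for HXT7, -1.52 for INH1, -2.04 for IMD2 and -2.90 for SOL4, so the likeness holds only for the ratios as deposited.

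Other lists are given with their shares, beside 4.02% of named genes upward and 4.17% downward. Mitochondrial ribosomal protein genes had 1 of 62 (1.61%) past 2-fold upward, MRPS28, although their median difference was 0.36 and 55 were above 0. Heat shock and chaperone genes had 3 of 27 (11.1%) past 2-fold upward, HSP104, HSP78 and MDJ1, and a median of 0.30. HSP104, the disaggregase, lay at 2.10 in peroxide and 0.84 unstressed. Ergosterol genes had 4 of 32 (12.5%) downward, among them ERG1, squalene epoxidase, at -1.19 and -0.03, and 1 (3.13%) upward, ARE2, an enzyme of sterol ester synthesis, at 1.15 and -0.49. Phosphate genes had 1 of 31 (3.23%) in each direction, PHM6 at 1.67 and the regulator PHO81 at -1.09, and cell wall genes had 2 of 40 (5.00%) in each direction. Mating and pheromone genes had 1 of 35 (2.86%) upward and 5 (14.3%) downward, FAR1 and KAR3 among the 5, with a median of -0.18. With each array divided by its own spread, ergosterol genes had 1 past 2-fold upward and 0 downward, and heat shock genes 1 and 2. Phosphate genes then had 2 and 3, cell wall genes 1 and 6, and mating genes 0 and 8, of which 2 were among the 5. Of the mitochondrial ribosomal protein genes, 38 were above 0 with that scaling.

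**Figure D4:**
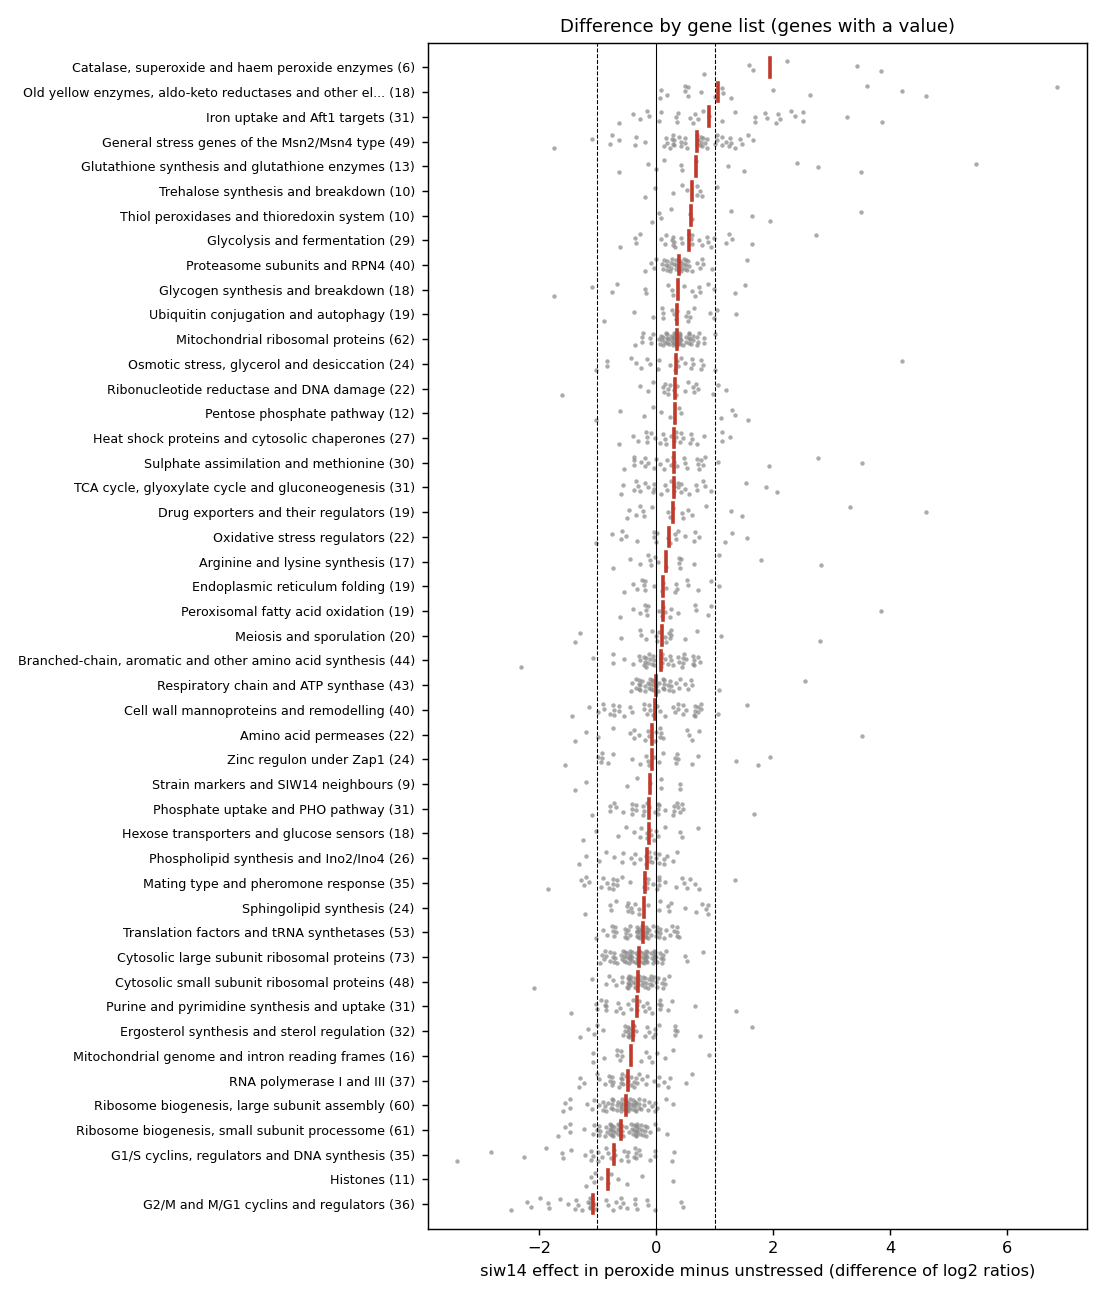
Difference of log2 ratios (siw14 effect in peroxide minus unstressed) for the genes of 47 lists, 1 point for each gene, with the list median as a red bar and the number of genes with a value in brackets; dashed lines mark a 2-fold difference. List medians run from 1.94 for catalase, superoxide and haem peroxide enzymes to -1.08 for G2/M and M/G1 genes. The sign of 12 list medians, general stress, trehalose and zinc genes among them, turns when each array is divided by its own spread.

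The arrays that took no part in the difference place these genes beside other stress responses. In wild type (ACY044) given peroxide, 135 of the 284 genes with a higher difference (47.5%) were at least 2-fold higher than unstressed, beside 10.4% of all genes with a difference, and 8 were at least 2-fold lower. Of 219 with a lower difference and a value, 123 (56.2%) were at least 2-fold lower in wild-type peroxide, beside 11.8%, and 2 were higher. Across 5570 genes and probes, which are not independent replicates, the difference and the wild-type response had a Pearson correlation of 0.56 and a Spearman correlation of 0.58. Per the labels the wild-type array held another strain and shares no channel with the arrays behind the difference, although the array design was the same.

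Turned round, the 582 genes at least 2-fold higher in wild-type peroxide had a median difference of 0.60. Their median siw14 ratios were 1.14 in peroxide and 0.48 unstressed. The 655 at least 2-fold lower had a median difference of -0.58, with median siw14 ratios of -0.87 in peroxide and -0.28 unstressed. The 4333 genes under 2-fold had a median difference of -0.02. With both strains in KCl, 100 of 277 with a higher difference (36.1%) were at least 2-fold above wild type in siw14, beside 10.7%, and 96 of 216 with a lower difference (44.4%) were at least 2-fold below it, beside 10.6%. The correlation with that array was 0.43 (Pearson) and 0.52 (Spearman) over 5527 genes and probes. The 594 genes at least 2-fold higher there had a median difference of 0.42, from 1.36 in peroxide and 0.90 unstressed. The 586 at least 2-fold lower had -0.53, from -0.89 and -0.30. No share, median or correlation against the other arrays was recomputed with each array divided by its own spread. Groups with ratios on the same side on both arrays can shift or turn under that scaling.

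Single genes departed from these patterns on the other arrays. CCP1 lay at 3.91 in siw14 over wild type in peroxide, but wild type itself lay at -1.25 in peroxide over unstressed. FLR1, CTA1, MUP3 and OYE2 had wild-type peroxide ratios of 0.31, 0.38, -0.27 and -0.23, all under 2-fold. OYE3, GTT2, GRE2 and TSA2 were at least 4-fold higher in wild-type peroxide, at 2.27, 2.19, 2.04 and 2.08. FIT2 and HMX1 were high in wild-type peroxide at 5.45 and 3.46, whereas siw14 over wild type in peroxide was 0.27 and 2.67. In KCl the siw14 ratios of GTT2, FLR1, AAD4 and GRE2 were 0.57, -0.29, -0.03 and 0.64, all under 2-fold, and those of TSA2 and ECM4 were 2.44 and 2.49. RNR1 lay at -2.82 in KCl and 0.65 in wild-type peroxide. Of the 25 highest named genes, 14 were at least 2-fold higher in wild-type peroxide, and of the 25 lowest, 15 were at least 2-fold lower there.

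**Figure D5:**
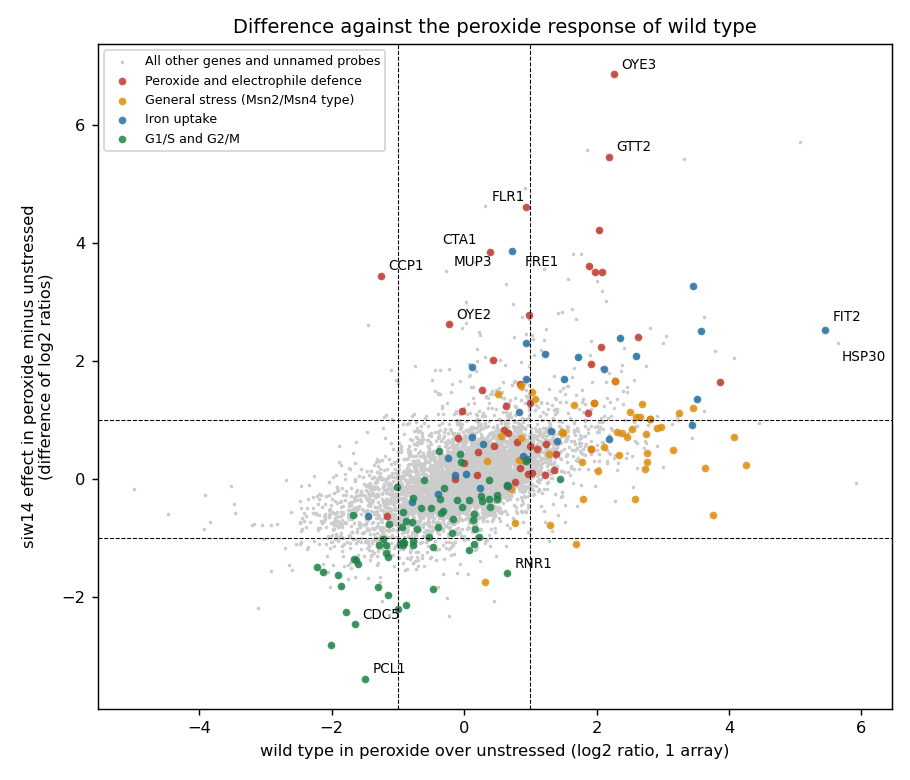
Difference of log2 ratios (siw14 effect in peroxide minus unstressed, vertical axis) against the log2 ratio of wild type (ACY044) in peroxide over unstressed (horizontal axis), 1 point for each of 5570 genes and unnamed probes, with listed groups in colour and dashed lines at 2-fold. Higher differences go with higher wild-type ratios (Pearson correlation 0.56), but CCP1 (3.44) stands at -1.25 on the horizontal axis and RNR1 (-1.61) at 0.65; general stress genes lie to the right, and the sign of their median difference turns with the scaling.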

How the data were processed

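The authors deposited 1 log ratio per probe and array (Cy5 over Cy3 per the labels' dyes), taken here as log2; the base, background correction, normalisation and cause of missing values are not given in the sources used here. No intensities were used, so depth is unknown and the number of arrays limits the precision. The platform annotation gave 1 gene symbol for 4075 of 6256 yeast probes, several for 0 and none for 2181. Against RefSeq's gene table, 3939 of 4072 symbols needed no change, 125 took a newer name and 8 kept the old one. Probes of 1 symbol were averaged (3 symbols), and 53 control features were left out. All value columns were matched to samples, leaving 0 unused.

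Differences, medians and counts were computed with Python 3.11.15, pandas 2.3.3 and numpy 2.4.6, and plots with matplotlib 3.10.9; the code was tested on simulated data. The rule of size was a log2 difference of 1.0, or 2-fold. The members and the 47 lists were chosen with earlier results of these data known, and the lists come from general knowledge of yeast. AKR1, TAF1 and PCL5 were taken out of the iron list and YMR31 out of the mitochondrial ribosomal list after values were seen, because they do not belong there. List members missing from the platform's symbols were not analysed.

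Genes named were the 25 highest and 25 lowest named genes, the 4 highest and 4 lowest of each list, every member of the defence, exporter, iron, zinc and oxidative regulator lists, up to 12 genes of each kind of sign change, and the 12 genes at least 4-fold on both arrays with the smallest difference; not all are printed. CLB5, CLB2, CLN3 and other genes that the rule does not take were picked with their values in view. Alternatives were each array divided by its own spread or centred on its median, a residual from the line in place of subtraction, 3-fold, named genes only, and natural logarithms. Promoter motifs were not analysed here.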

Additional observations from a re-analysis of the deposited data

Results flagged for a closer look

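Named genes whose siw14 ratio was at least 2-fold lower unstressed and above 0 in peroxide were OYE2 (difference 2.62), FIT2 (2.52), TIS11 (2.50), SIT1 (2.38), SNO1 (1.88), ARN1 (1.86), ATG41 (1.74) and LIN1 (1.28). SNO1, a partner of a vitamin B6 synthesis enzyme, lay at 0.13 in peroxide and -1.74 unstressed. ATG41, an autophagy gene under Zap1, lay at 0.10 and -1.64, and LIN1 at 0.05 and -1.23. Of these 8 genes only OYE2 was at least 2-fold above wild type in peroxide, at 1.59.

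The opposite change, at least 2-fold higher unstressed and below 0 in peroxide, was found for CLB1 (-2.21), ICS2 (-2.08), RPI1 (-1.43) and MTH1 (-1.02). ICS2 lay at -0.10 in peroxide and 1.98 unstressed, RPI1 at -0.41 and 1.01, and MTH1, a repressor in glucose sensing, at -0.02 and 1.01. The median siw14 ratio had opposite signs on the 2 arrays for several gene lists. Among them were iron uptake (median difference 0.901), histones (-0.818) and meiosis and sporulation (0.0979). Others included drug exporters, at 0.50 in peroxide and -0.12 unstressed, heat shock genes, at 0.34 and -0.11, and hexose transporters, at -0.09 and 0.09. The meiosis and sporulation median rests on 20 of 48 genes, since 28 had no difference. All of these are single arrays, and the differences were not tested.

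Of 4 control features with values on both arrays, which no comparison used, 3 had ratios past 2-fold. These E1A features, which are spike-in controls, lay at 2.28, 1.75 and 1.17 on the peroxide array, against 2.35, 2.08 and 1.68 on the unstressed array. Their differences were -0.07, -0.32 and -0.51, all under 2-fold. In wild type (ACY044) in peroxide over unstressed the same features lay at -0.23, -0.20 and -0.17. The other, an eQC feature, lay at 0.19 in peroxide and 0.64 unstressed. The cause was not tested.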

How the results depend on the processing

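Dividing each array by its own spread gave 217 genes at least 2-fold higher and 243 lower, of which 148 and 76 were among the 284 and 220. Genes high in peroxide alone, a class still judged on the ratios as deposited, numbered 99 in place of 184. Lists with a median of at least 0.5 in size numbered 7 in place of 13. General stress genes turned to a median of -0.92 and trehalose genes to -0.50, and 45 of the 50 named genes at either end stayed past 2-fold, not MCM7, DBP7, CLN2, NSR1 or ZAP1. This scaling lowers the weight of the wider peroxide array by construction. Centring each array on its median gave 293 and 209, and the residual from a line gave 271 and 225. Asking for 3-fold left 115 higher and 31 lower, with 85 high in peroxide alone. Named genes alone gave 157 higher, 103 of them high in peroxide alone. Reading the values as natural logarithms gave 585 higher and 545 lower. Of the 585, 279 had a deposited ratio of at least 1.0 in peroxide and under 1.0 in size unstressed. That cut was not converted, so 279 is not a count at 2-fold under this reading.

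No paired analysis was possible because each comparison had 1 array, so no group shares 2 or more replicate numbers with another; leaving out a replicate was not possible for the same reason. Without replicates, intensities or a dye swap, no difference here has an error, and culture, dye and array effects cannot be told apart from it. The same holds for any other genotype difference between Siw14D and BY4741.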

Other observations

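Genes with a value on 1 array alone could not enter the difference. In peroxide but not unstressed, 85 named genes had a value, and among the highest were FRM2, a nitroreductase-like gene, at 5.57, HSP12 at 5.03, ECM13 at 4.40, DAK2 at 3.14 and SOR1 at 2.73. At the low end stood the sporulation genes SPO74 at -3.93 and SPS4 at -3.48. Unstressed but not in peroxide, 20 had a value, led by the stress genes DDR2 at 4.79, YRO2 at 3.03 and GLK1 at 2.01. These genes were chosen after their values were seen, and 58 named genes had neither value.

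Of 2500 pairs of adjacent named genes with a difference, 11 had both at least 2-fold higher and 11 both lower. Among single named genes, 4.02% were higher and 4.17% lower. How many such pairs would arise among unrelated genes was not worked out, so the counts carry no result about neighbours. The higher pairs included ARR2 with ARR3 (2.09 and 2.40), GSH1 with LSB6 (2.77 and 1.43), CCP1 with GPT2 (3.44 and 1.98), FRE1 with CRR1 (3.86 and 1.10) and AFT2 with TPK2 (1.89 and 1.18). The lower pairs included CLB1 with CLB6 (-2.21 and -1.87), CLB2 with CLB5 (-1.50 and -1.07), CLN1 with CIK1 (-2.26 and -1.23) and HHF1 with HHT1 (-1.07 and -1.04). Whether probes of such neighbours share signal was not tested.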
